A study of Mus musculus with 8 samples.

Results

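Oct6 peaks at gene start sites were 1640 of the 7965 peaks that the authors' day 4 list places on chromosomes, or 20.6% (95% Wilson interval 19.7% to 21.5%). A peak was taken when its score was below 20 and its centre lay within 1 kb of an annotated transcript start of a protein-coding gene. Score and position chose the peaks, so both are given as descriptions, while base sequence and RNA level were not used. The 1640 peaks lay at the starts of 1745 protein-coding genes, and 1712 of these genes had values in the expression table. Another 33 peaks met the distance limit with a score of 20 or more and were left out.

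The RNA came from mouse embryonic stem cells grown as embryoid bodies, in which doxycycline induced Oct6 overexpression or which were labelled control, at days 2, 4 and 6. Each arm and day had 1 library, so 6 RNA-seq libraries were compared and no difference within a day has a replicate check. The peaks came from 1 Oct6 ChIP library at day 4 of neural differentiation, from cells labelled as overexpressing Oct6, beside 1 input library. All cells were described as R1 or R1/E stem cells kept on feeder cells before serum-free differentiation, and the labels do not tell the 2 lines apart by library. Nor do they say whether control cells received doxycycline or carried the inducible Oct6, so effects of the drug or of the line cannot be told apart from those of Oct6. The titles of the 6 RNA libraries carry the prefix fbs, which the labels do not explain. Whether the RNA and the ChIP cultures had the same medium is therefore not settled here. Neither the ChIP nor the input signal was analysed here.

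Oct6, encoded by Pou3f1, belongs to the POU family of transcription factors and acts in epiblast, neural progenitors and Schwann cells. POU proteins are known to bind an octamer, often beside a Sox site, and also as dimers on palindromic sites, mostly at enhancers far from genes. Start sites of widely expressed genes lie mostly in CpG-rich DNA with binding sites for Sp1, ETS, NRF1 and YY1 proteins.

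A few start-site peaks with the octamer ATGCAAAT show what that site looks like where it occurred. Each is the whole 133 bp peak from the mm9 reference (NCBIM37), 5′ to 3′ on the strand of the gene, with the octamer in capitals, read as ATTTGCAT where it lies on the other strand.
Pou2f1: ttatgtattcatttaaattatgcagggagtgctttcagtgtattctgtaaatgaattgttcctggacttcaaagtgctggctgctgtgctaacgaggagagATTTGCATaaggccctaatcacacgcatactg
A930038C07Rik: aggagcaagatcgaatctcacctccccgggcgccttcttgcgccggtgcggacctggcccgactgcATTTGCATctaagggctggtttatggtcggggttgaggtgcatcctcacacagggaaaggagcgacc
Pcdh8: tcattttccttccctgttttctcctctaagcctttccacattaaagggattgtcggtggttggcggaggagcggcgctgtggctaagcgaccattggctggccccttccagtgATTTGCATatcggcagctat
Elf3: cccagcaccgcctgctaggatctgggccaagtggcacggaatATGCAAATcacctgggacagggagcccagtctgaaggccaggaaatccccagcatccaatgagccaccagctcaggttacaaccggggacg
The Pou2f1 peak, at chr1:167865308-167865440 on the minus strand, lay 304 bp upstream of a start and in an intron of longer transcripts, with the octamer from base 102. Pou2f1 encodes Oct1, a widely expressed POU factor. The A930038C07Rik peak, at chr6:65622099-65622231 on the plus strand, lay in an intron 581 bp downstream of the start, with the octamer from base 67. RefSeq names this gene Ndnf, a secreted neurotrophic factor. The Pcdh8 peak, at chr14:80171147-80171279 on the minus strand, lay 94 bp upstream of the start of this protocadherin, with the octamer from base 114. The Elf3 peak, at chr1:137155107-137155239 on the minus strand, lay 124 bp upstream of the start of this epithelial ETS factor, with the octamer from base 43.

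The next peaks show the more usual case, with no octamer, at genes that the results below turn on. Capitals mark the GC box GGGCGG, read as CCGCCC on the other strand.
Pou3f1: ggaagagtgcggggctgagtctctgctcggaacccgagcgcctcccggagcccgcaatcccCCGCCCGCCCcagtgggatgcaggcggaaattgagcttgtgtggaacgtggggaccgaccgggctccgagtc
Ncam1: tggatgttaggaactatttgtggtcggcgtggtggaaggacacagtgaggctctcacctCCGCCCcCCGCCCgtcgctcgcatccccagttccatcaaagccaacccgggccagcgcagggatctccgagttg
Id2: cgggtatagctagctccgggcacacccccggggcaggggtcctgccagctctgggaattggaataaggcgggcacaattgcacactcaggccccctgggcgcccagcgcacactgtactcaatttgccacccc
Tcf7l1: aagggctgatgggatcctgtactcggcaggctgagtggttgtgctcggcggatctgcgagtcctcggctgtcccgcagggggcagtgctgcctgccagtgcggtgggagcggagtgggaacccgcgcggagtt
Rplp0: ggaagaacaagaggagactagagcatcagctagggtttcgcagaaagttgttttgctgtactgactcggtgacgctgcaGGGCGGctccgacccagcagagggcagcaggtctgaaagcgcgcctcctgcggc
Snrpe: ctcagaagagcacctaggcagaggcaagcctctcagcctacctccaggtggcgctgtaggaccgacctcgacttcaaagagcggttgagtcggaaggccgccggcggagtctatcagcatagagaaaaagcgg
The Pou3f1 peak, at chr4:124334389-124334521 on the plus strand, lay 441 bp upstream of the start of the Oct6 gene itself and held 2 overlapping GC boxes. The Ncam1 peak, at chr9:49607053-49607185 on the minus strand, lay 92 bp upstream of the start of this neural cell adhesion gene and held 2 more. The Rplp0 peak, at chr5:116009207-116009339 on the plus strand, lay 203 bp upstream of the start of this ribosomal stalk protein gene and held 1. No GC box was found in the other 3. These were Id2, an inhibitor of helix-loop-helix factors induced by BMP (chr12:25781153-25781285, minus strand, 262 bp upstream), Tcf7l1, the Wnt pathway factor Tcf3 (chr6:72739568-72739700, minus strand, 386 bp upstream) and Snrpe, a core protein of spliceosomal particles (chr1:135506931-135507063, minus strand, 129 bp upstream). The centres of all the printed peaks lay outside annotated exons of protein-coding genes.

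The octamer was rare at start sites. It was present in 17 of the 1640 start-site peaks, or 1.04% (95% Wilson interval 0.648% to 1.65%), against 301 of the 6061 other peaks of score below 20, or 4.97% (4.45% to 5.54%). Windows of the same width centred on all 69963 annotated protein-coding starts held it in 0.437% (0.391% to 0.489%). The share at start-site peaks thus lay below that of the other peaks and above that of start windows, with no overlap of the 3 intervals, which cover counting error only. The start windows, here and below, were centred on starts of genes of any level, while the peaks lay up to 1 kb from a start. Position and gene set were thus not matched. The 8-letter core ATGCNNAT, which every octamer also matches, gave the same order, with 4.94% of start-site peaks, 24.0% of other peaks and 2.84% of start windows.

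The place of the octamer within the peak was counted as a description. The 18 octamers in start-site peaks lay a median of 40.5 bp from the peak centre, and 2 of them within 20 bp. In the other peaks 328 octamers lay a median of 28.5 bp from the centre, and 116 of them, or 35.4%, within 20 bp. Neither set was compared with random placement within the peak, and 18 octamers are too few to call a difference. The palindrome that POU dimers bind, ATGCAT followed directly by ATGCAT, occurred in 0 of 1640 start-site peaks, which allows a share of up to 0.183% (3 counts of the total). It occurred in 30 of the other peaks, or 0.495%, and in 3 start windows. The composite site CATTGT, any base, then the octamer occurred in 0 start-site peaks and in 1 other peak. The Sox element CATTGT alone was in 3.41% of start-site peaks (2.64% to 4.41%), against 9.44% of other peaks and 4.36% of start windows, the start windows lying within the interval.

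Promoter motifs showed the opposite order against the other peaks. GC boxes, the sites of Sp1 and related factors, were in 540 start-site peaks, or 32.9% (30.7% to 35.2%), against 2.62% of other peaks and 26.97% of start windows. The ETS element CCGGAAG was in 154, or 9.39% (8.07% to 10.9%), against 0.511% of other peaks and 6.54% of start windows. The NRF1 element GCATGCGC was in 2.13% (1.54% to 2.95%), against 0.363% of other peaks and 1.57% of start windows. The E-box CACGTG was in 4.09%, against 1.15% of other peaks and 3.48% of start windows, and the cyclic AMP element TGACGTCA was in 1.52%, against 0.115% and 1.11%. For NRF1, E-box and cyclic AMP elements the start windows lay inside the interval of the start-site peaks, while GC boxes and ETS elements lay above the start windows. The YY1 element AAGATGGCG was in 1.10% (0.695% to 1.73%), against 0.0990% of other peaks and 1.54% of start windows. CCAAT was in 17.01% of start-site peaks, 16.98% of other peaks and 15.4% of start windows, so this motif set the start-site peaks apart from neither. All motifs were exact letters sought on both strands, and a match is a description of the letters, not a bound site.

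**Figure D1:**
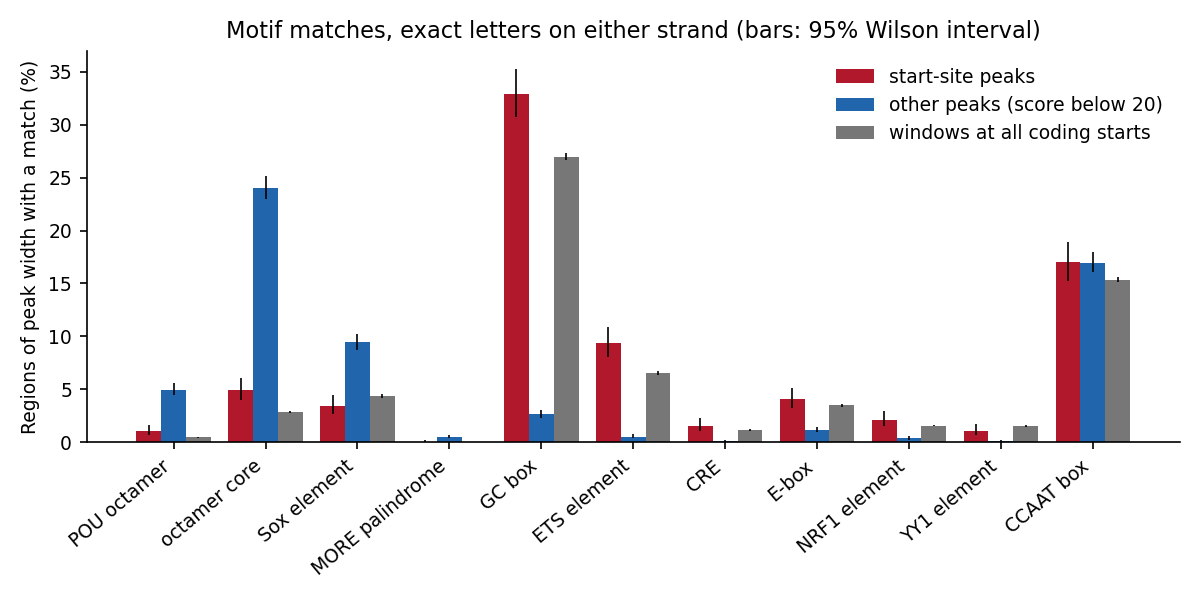
Share of 133 bp regions that hold each motif (%, vertical axis) among 1640 start-site peaks, 6061 other peaks of score below 20 and windows at 69963 protein-coding starts, with 95% Wilson intervals. Octamer, core and Sox matches are highest in the other peaks, and GC box and ETS matches are highest in the start-site peaks.

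Base composition went with the motifs. Start-site peaks had a median G+C content of 61.7% (quartiles 54.9% and 67.7%), against 38.3% (33.1% and 45.1%) in the other peaks of score below 20 and 57.9% in the start windows. They held a median of 9 CpG dinucleotides, against 1 in the other peaks and 5 in the start windows. Only 33 start-site peaks, or 2.01%, held no CpG, against 40.7% of other peaks and 9.58% of start windows. The part of base composition in the motif shares was not tested.

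Most start-site peaks sat close to the start and slightly upstream. The median distance was 131 bp without regard to side (quartiles 44 and 346 bp), and 702 peaks, or 42.8%, lay within 100 bp. Upstream lay 982 peaks, or 59.9%, downstream 651, and 7 exactly at a start. The fullest 100 bp bin, directly upstream, held 432 peaks, and the bin directly downstream held 270. Beyond 500 bp lay 253, or 15.4%. By annotation 712 centres, or 43.4%, were outside protein-coding genes, 451 in untranslated or non-coding exon, 386 in introns and 91 in coding exon. A single gene was assigned to 1443 peaks, and 195 peaks had 2 genes, of which 187 had them on opposite strands. Whether the 2 starts pointed away from each other was not checked.

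**Figure D2:**
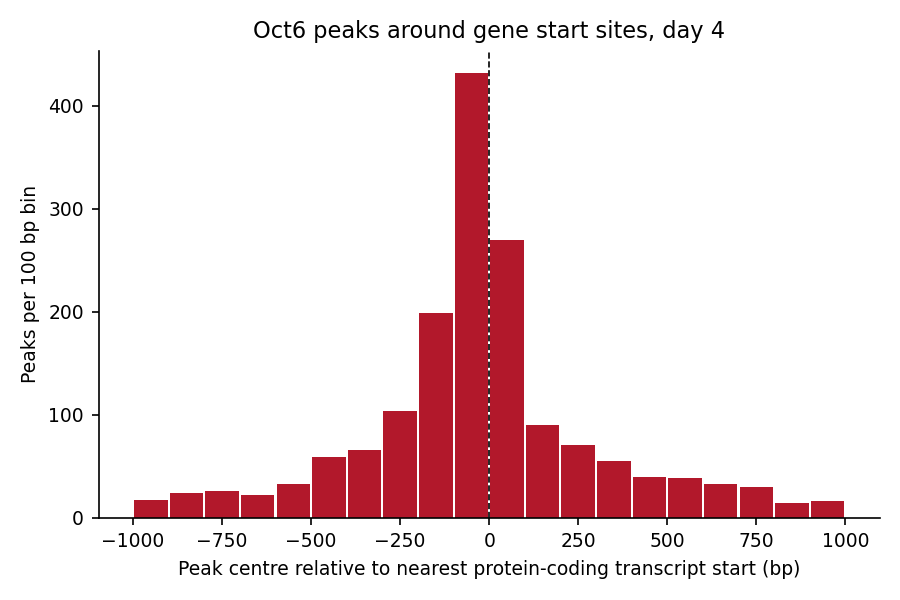
Number of start-site peaks (vertical axis) in 100 bp bins of the distance from the peak centre to the nearest protein-coding transcript start (bp, negative upstream). The bins rise to 432 just upstream and 270 just downstream of the start, and fall to 17 and 16 at the limits of 1 kb.

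The scores of the peaks are the authors' and spanned 8.90 to 19, with a median of 11.4 and 653 peaks, or 39.8%, at 10.1. They fell on steps of 1.27, whose meaning the labels do not state. Of all placed peaks, 20.5% lay at a start in the lowest band (7.60 to 10.1), 22.2% at 11.4 and at 12.7 to 13.9, 20.6% between 15.2 and 19, 13.3% between 20.3 and 29.1, and 9.43% (4.10% to 20.3%) from 30.4 to the maximum of 145.6. Just inside the score limit, at 19, stood 11 peaks, among them those at Ube2f, a ubiquitin-conjugating enzyme gene, and Snrpd3, a spliceosomal core protein gene. Just outside it, at 20.3, stood another 11, among them those at Actr3, Arid1a, Jag2 and Gtf3c3. Just inside the distance limit lay the peaks at Nr4a2, 1000 bp upstream, and Rgmb, 996 bp downstream, and just outside lay those of Arrdc4 and Ttc29, both 1001 bp downstream. Pou2f1 had 4 start-site peaks, spread over several of its starts and scored 13.9 to 17.7, and a further peak 4 bp from a start just above the limit at 20.3. No other gene had more than 3, and 83 genes had 2.

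The X chromosome had few of them. It carried 8 start-site peaks, or 0.488%, against 4.03% of all protein-coding starts, and 48 of all 7965 placed peaks, or 0.603%. That is 2.84 start-site peaks per 1000 starts on X, against 17.2 to 41.9 on the autosomes. The share on X was thus low over the whole list as well as at start sites.

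Genes with a start-site peak were mostly expressed genes. FPKM is a fragment number corrected for the length of the transcript and the size of the library, and a gene counted as expressed at 1 FPKM or more in at least 1 of the 6 libraries. That held for 1607 of the 1712 genes, or 93.9%, against 11305 of 18492 other protein-coding genes, or 61.1%. In every library 1460 of the 1712, or 85.3%, reached 1 FPKM, against 47.6% of the others. The median level of the genes with a peak was 14.2 FPKM in the induced library and 11.7 in control at day 2, 14.2 against 13.2 on day 4 and 14.95 against 14.4 on day 6. The other protein-coding genes had medians of 1.93 FPKM (induced) against 1.17 (control), 2.05 against 1.57, and 2.14 against 1.96 on the same days.

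The share of genes with a start-site peak went up with the RNA level at the day of the ChIP. Ranked by the induced day 4 library, 33 of 5472 genes below 0.1 FPKM had a peak, or 0.603% (0.430% to 0.846%), then 3.70% from 0.1 to 1, 9.83% from 1 to 10, 15.3% from 10 to 50, 18.1% from 50 to 200 and 62 of 295, or 21.0% (16.8% to 26.0%), above 200 FPKM. Ranked by the control day 4 library, although the ChIP cells were labelled as overexpressing Oct6, the shares were 1.3%, 4.32%, 9.89%, 15.6%, 17.4% and 20.1%. Both libraries gave a steady increase, and only the lowest bin had intervals that did not overlap between them. The 1607 expressed genes with a peak were 12.4% of the 12912 expressed protein-coding genes, and the 1712 in all were 8.47% of 20204.

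**Figure D3:**
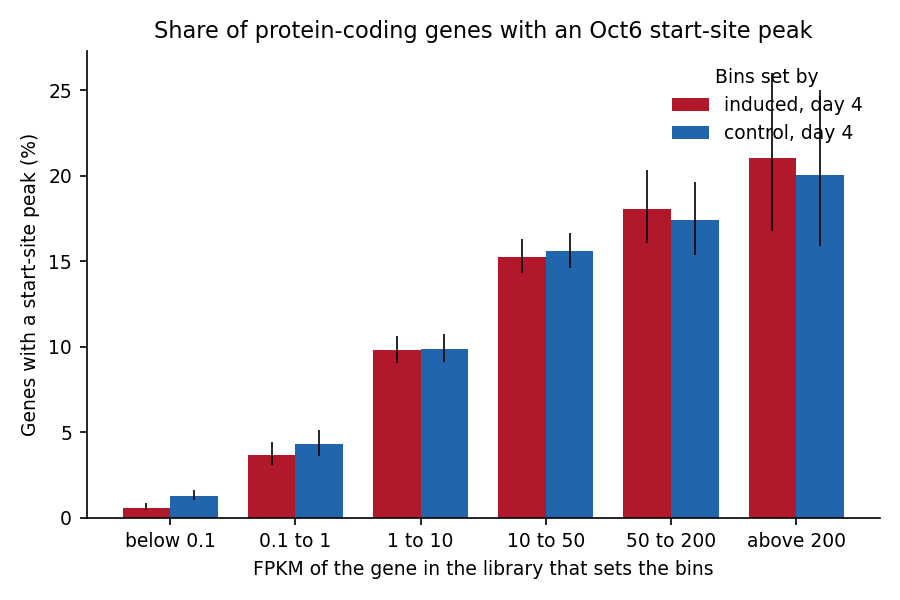
Share of protein-coding genes with an Oct6 start-site peak (%, vertical axis, 95% Wilson intervals) in bins of the gene's FPKM, with bins set by the induced and by the control day 4 library. The share climbs from 0.603% and 1.3% below 0.1 FPKM to 21.0% and 20.1% above 200 FPKM.

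The highest levels belonged to genes of translation and protein folding. Eef1a1, the translation elongation factor, measured 4962 FPKM (induced) against 4885 (control) on day 2, 5569 against 5552 on day 4 and 4904 against 4353 on day 6. Rplp0 measured 1782 against 1919 FPKM on day 2, 2069.7 against 2074 on day 4 and 1542 against 1488 on day 6. Npm1, a nucleolar chaperone of ribosome assembly, measured 1421 against 2232 FPKM on day 2, 1554 against 1871 on day 4 and 1647 against 1580 on day 6. All 6 genes of highest mean level, which also include Rplp1, Hspa8 and Rps3a, differed by less than 1 on the log2 scale on each day. At the other end, 105 of the 1712 genes stayed below 1 FPKM in all 6 libraries. Among those with the highest peak scores, Cnih3, a cornichon protein of AMPA receptors, measured 0.222 FPKM (induced) against 0.255 (control) on day 4, and Vpreb1, a surrogate light chain of B cell precursors, measured 0.0903 against 0.178.

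The lists used here were gathered by pathway or by the gene symbol's stem. Genes of splicing and RNA binding had a start-site peak in 15 of 63 cases, or 23.8% (14.99% to 35.6%), ribosomal proteins in 20 of 85, or 23.5% (15.8% to 33.6%), and respiratory chain genes in 19 of 99, or 19.2% (12.7% to 28.0%). Over their expressed members alone, the shares were 23.8% (14.99% to 35.6%) of 63, 23.8% (15.97% to 33.9%) of 84 and 20% (13.2% to 29.1%) of 95, and the 3 intervals lay above the 12.4% of expressed protein-coding genes. The members with a peak had median levels of 187, 1250 and 105 FPKM, and genes of such levels had a peak in 18.1% (50 to 200 FPKM) and 21.0% (above 200 FPKM) of cases in the induced day 4 library, which the same intervals include. None of the 20 ribosomal protein genes with a peak differed by 2-fold on any day. At a mean level of 100 FPKM or more, 2.33% of all genes with a peak were higher on at least 1 day and 0 were lower. Of other protein-coding genes at that level, 4.61% were higher and 4.06% lower, and 20 genes are too few to set against these shares. The median of the mean differences over the 3 days was 0.02 for the ribosomal protein genes, -0.02 for the splicing genes and 0.11 for the respiratory chain genes with a peak. Polymerase and general transcription genes had one in 17 of 103, translation factors in 10 of 66, mitochondrial ribosome genes in 11 of 76, and transfer RNA synthetases in 6 of 34. The proteasome and ubiquitin list had 16 of 136 and zinc finger proteins 51 of 432, or 11.8% each, and histone genes 9 of 81. Olfactory and vomeronasal receptors, of which 8 were expressed here, had 3 of 1445, or 0.208%.

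None of 29 neural progenitor genes had a start-site peak, and over the 27 that were expressed the 95% Wilson interval reaches 12.46%, which includes the share of all expressed genes. Neuron genes had 3 of 25 (Ebf3, Elavl4 and Ncam1), pluripotency genes 1 of 25 (Tbx3), and germ layer genes 2 of 26 (Eomes and Gata4). Among signalling genes, the BMP list had 3 of 26 (Id2, Smad1 and Smad4), the Wnt list 4 of 38 (Fzd8, Myc, Tcf7l1 and Wls), the Nodal and FGF list 5 of 28, among them Etv5, Map2k1, Map2k2 and Mapk3, and the Notch list 1 of 15 (Jag1). Chromatin regulators had 7 of 42, among them Jarid2, Kdm1a and Tet1, and cell cycle genes 4 of 29, among them E2f1 and Trp53. The intervals of these lists are wide, and over expressed members each of them includes 12.4%.

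**Figure D4:**
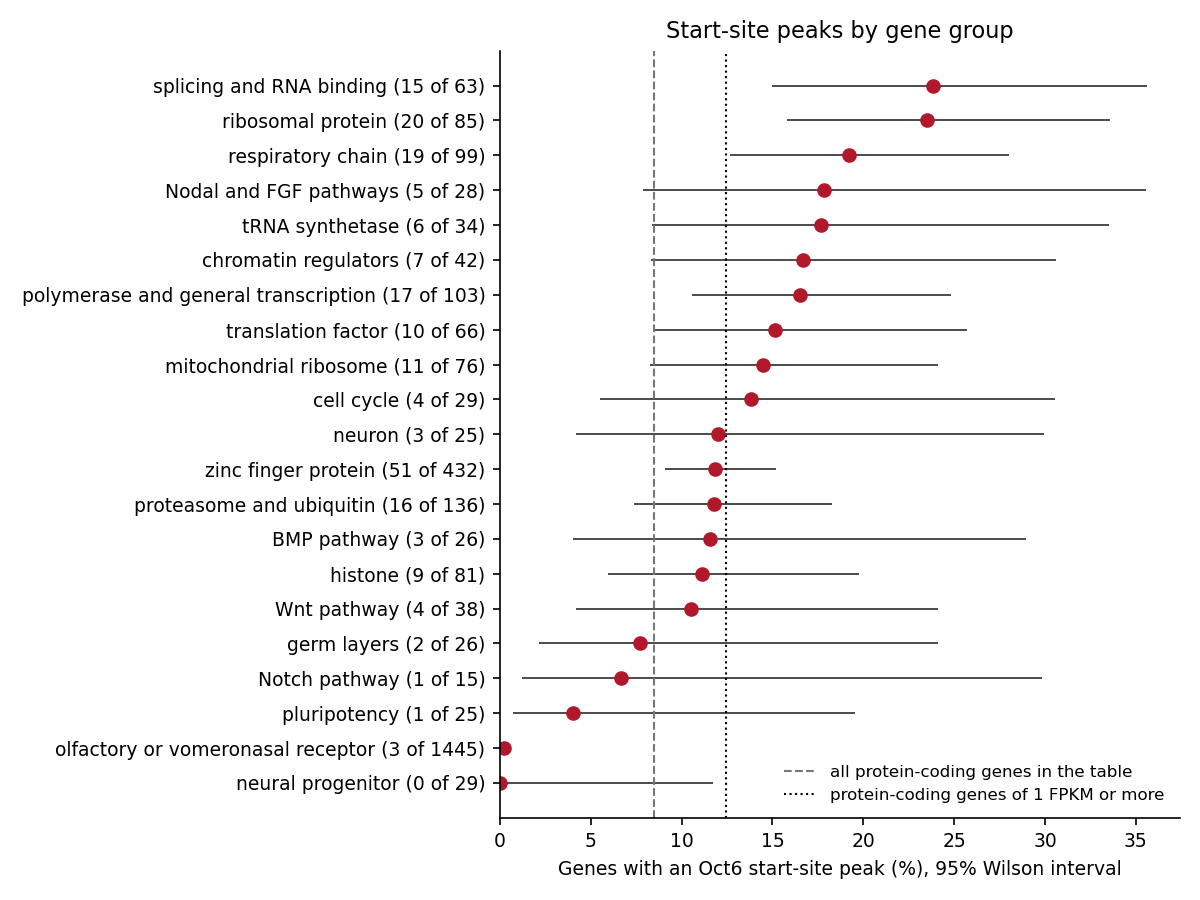
Share of each gene group's members in the expression table that have an Oct6 start-site peak (%, horizontal axis, 95% Wilson intervals), for groups of at least 15 genes. Dashed and dotted lines give the share over all protein-coding genes (8.47%) and over those at 1 FPKM or more (12.4%). The whole intervals of splicing, ribosomal protein and respiratory chain genes lie to the right of both lines. Some other groups have shares, but not whole intervals, to the right of both. The shares of olfactory and neural progenitor genes are at or near 0.

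Set between induced and control cells, genes with a start-site peak were more often higher than lower. They were higher at close to the rate of all genes, and lower less often than all genes. A gene counted as higher or lower when it had 1 FPKM or more in either library and differed by at least 1 in log2(FPKM + 1), a scale that understates the change of low genes. At day 2, 152 of 1570 genes were higher, or 9.68%, against 9.72% of all genes tested, and 16 were lower, or 1.02%, against 1.83%. At day 4, 85 of 1576 were higher, or 5.39%, against 6.09% of all genes, and 6 were lower, or 0.381%, against 2.11%. At day 6, 44 of 1579 were higher, or 2.79%, against 3.37% of all genes, and 4 were lower, or 0.253%, against 2.1%. The shares of higher genes were thus near the background on each day, and the shares of lower genes were below it. These are RNA levels of whole cultures, in which a change in the number of cells of a type and a change of RNA per cell cannot be told apart.

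Scaling moved these splits. As deposited, genes with a peak had median differences of 0.15 on day 2, 0.11 on day 4 and 0.07 on day 6, and all tested genes had 0.17, 0.10 and 0.06. Of the genes with a peak that changed at day 2, 90.5% were higher as deposited, 82.2% after median ratio scaling and 80.7% after quantile normalisation. Over all genes these shares were 84.2%, 75.3% and 61.9%, and the median difference over all genes at day 2 became 0.03 and -0.03. Under each of these scalings and on each of the 3 days, more genes with a peak were higher than lower.

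Over the days, 185 of the 1607 expressed genes were higher on at least 1 day, or 11.51% (10.04% to 13.2%), against 12.7% of all genes, and 25 were lower on at least 1 day, or 1.56% (1.06% to 2.29%), against 4.9%. Higher on all 3 days were 28, or 1.74% (1.21% to 2.51%), against 1.03% of all genes, and they made up 19.9% of the 141 genes that were. Lower on all 3 days were 0 of the 1607, against 0.0732% of all genes, or 10 genes. Higher on exactly 1 day were 117 genes and on exactly 2 days 40, and 2 genes were higher on at least 1 day and lower on another.

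A fit over the 3 days with limma, with day as a block and Benjamini-Hochberg adjustment over 13661 genes, passed none of the genes with a peak. At an adjusted p below 0.05, 0 were higher, against 0.0146% of all genes, and 0 were lower, against 0.00732%. At an unadjusted p below 0.05, 287 were higher, or 17.9%, against 16.3% of all genes, and 76 were lower, or 4.73%, against 4.72%. The smallest adjusted p among them was 0.0538, of Dclk1. With 1 library per arm and day the fit measures the spread of the difference between days and not between cultures, and it had 2 residual degrees of freedom.

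Genes with a peak were split by level, and the share of lower genes was below that of other protein-coding genes at each level. At a mean level below 5 FPKM, 4 of 282 genes with a peak were lower on at least 1 day, or 1.42% (0.553% to 3.59%), against 7.67% (6.88% to 8.55%) of other protein-coding genes at that level. From 5 to 20 FPKM the shares were 1.85% (1.06% to 3.20%) and 3.59% (3.06% to 4.20%), from 20 to 100 FPKM 1.65% and 2.19%, and at 100 FPKM or more 0 of 129 and 4.06%. For higher genes the shares below 5 FPKM were 24.1% (19.5% to 29.4%) with a peak and 18.9% (17.7% to 20.2%) without, and the intervals overlapped there and at each higher level. For lower genes they failed to overlap below 5 FPKM and overlapped at the other levels, and the difference between levels was not tested.

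Genes whose peak lay farther from the start were more often higher in induced cells. With the nearest start-site peak more than 500 bp away, 50 of 236 expressed genes were higher on at least 1 day, or 21.2% (16.5% to 26.8%). From there down to 100 bp the share was 11.6% (9.38% to 14.3%), and within 100 bp it was 8.20% (6.40% to 10.5%), or 58 of 707 genes. Over all genes the share was 12.7%, below the interval of the farthest set, inside that of the middle set and above that of the nearest. Lower on at least 1 day were 2, 9 and 14 genes from the farthest to the nearest set, or 0.848%, 1.36% and 1.98%, against 4.9% of all genes. The median levels of these sets were 11.7, 14.5 and 14.5 FPKM, and the part of level in the difference was not tested. Score and composition split the genes less, with 12.7%, 10.8% and 10.6% higher from the lowest to the highest score band. From the lowest to the highest G+C band the shares were 15.1%, 10.96% and 11.02%. The intervals of the bands overlapped, and each included the share of all genes.

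Pou3f1, the induced gene, was checked first among single genes. It measured 312 FPKM (induced) against 64.3 (control) on day 2, 222 against 10.1 on day 4 and 86.8 against 4.76 on day 6. Induced cells were above control on each day, as labelled, and the mean difference was 3.51 on the log2 scale (standard error 0.40, limma adjusted p = 0.0885). Reads from the transgene and from the chromosomal gene cannot be told apart in this value.

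The genes with large differences are ordered here by their known roles, and no role was tested for enrichment. Lmo1, a LIM-only cofactor of transcription, measured 119.9 FPKM (induced) against 0.244 (control) on day 2, 33.3 against 3.04 on day 4 and 12.4 against 1.90 on day 6. Ebf3, a helix-loop-helix factor of differentiating neurons, measured 37.3 against 0.0981 FPKM on day 2, 8.82 against 0.0424 on day 4 and 6.20 against 0.661 on day 6. Both were highest in the induced day 2 library, and no control library reached an induced one. Arid5b, an ARID domain protein, measured 43.8 against 6.22 FPKM on day 2, 33.0 against 1.98 on day 4 and 12.9 against 4.67 on day 6. Lmo3, a relative of Lmo1, measured 3.99 against 0.0572 FPKM on day 2 and 3.82 against 0.216 on day 6, and on day 4 it measured 9.24 in induced cells and was listed at 0 in control. The mean differences were 3.96 for Lmo1, 3.49 for Ebf3, 2.48 for Arid5b and 2.53 for Lmo3, with adjusted p between 0.0885 and 0.144 in limma's fit. Nr4a2, a nuclear receptor of dopamine neurons, and Pbx3, a partner of Hox proteins, were also higher on all 3 days, with mean differences of 1.73 and 1.96.

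The next genes are known from neurons as background, and apart from Ncam1 and Elavl4 they were not on the neuron list. C1ql2, a secreted synaptic protein of the C1q family, measured 25.2 FPKM (induced) against 0.0135 (control) on day 2, 23.8 against 0.0340 on day 4 and 4.52 against 0.391 on day 6. Dclk1, a doublecortin-like kinase of growing neurons, measured 5.84 against 0.726 FPKM on day 2, 19.1 against 3.83 on day 4 and 12.05 against 2.21 on day 6. The daily differences of Dclk1 were 1.99, 2.06 and 2.03, a closer agreement between days than for the other genes higher on all 3 days, with a standard error of 0.14 on the mean of 2.02. Ncam1 measured 8.82 against 0.497 FPKM on day 2, 4.18 against 0.590 on day 4 and 5.74 against 2.25 on day 6. Serpini1, the protease inhibitor neuroserpin, measured 9.78 against 3.89 FPKM on day 2, 20.97 against 1.19 on day 4 and 7.13 against 1.39 on day 6. Elavl4, an RNA-binding protein of neurons, measured 1.05 against 0.401 FPKM on day 2, 1.24 against 0.235 on day 4 and 3.14 against 0.427 on day 6, and reached the 2-fold limit at day 6 alone. All 3 listed neuron genes with a peak were therefore higher on at least 1 day, none of them passed limma's adjusted test, and 3 genes are too few to set against the other lists.

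The remaining genes have varied roles. Tppp3, a tubulin-binding protein, measured 81.0 FPKM (induced) against 2.42 (control) on day 2, 24.05 against 1.401 on day 4 and 13.4 against 1.94 on day 6. Rgs7, which shortens G protein signals in neurons, measured 8.46 against 0.0465 FPKM on day 2, 4.85 against 0.260 on day 4 and 2.32 against 0.123 on day 6. Pde1a, a phosphodiesterase activated by calmodulin, measured 2.88 against 0.0577 FPKM on day 2, 9.06 against 0.0728 on day 4 and 4.08 against 0.107 on day 6. In each of these genes every induced library was above every control library. Fzd10, a Wnt receptor, measured 16.5 against 5.90 FPKM on day 2, 26.9 against 9.38 on day 4 and 37.9 against 6.89 on day 6, and its difference was largest at day 6. Fmn2, an actin-nucleating formin, measured 7.40 against 1.96 FPKM on day 2, 8.11 against 0.911 on day 4 and 5.65 against 0.708 on day 6. Ptprz1, a receptor phosphatase of neural stem cells, and Lphn3, a latrophilin receptor of synapses, had mean differences of 1.64 and 1.52. The other genes higher on all 3 days were Anxa10, Arhgap18, Bbs9, Dgkb, Gfral, Mtmr11, Oxct1, Spag9 and 2310028H24Rik, with mean differences between 1.11 for Spag9 and 1.68 for Oxct1.

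**Figure D5:**
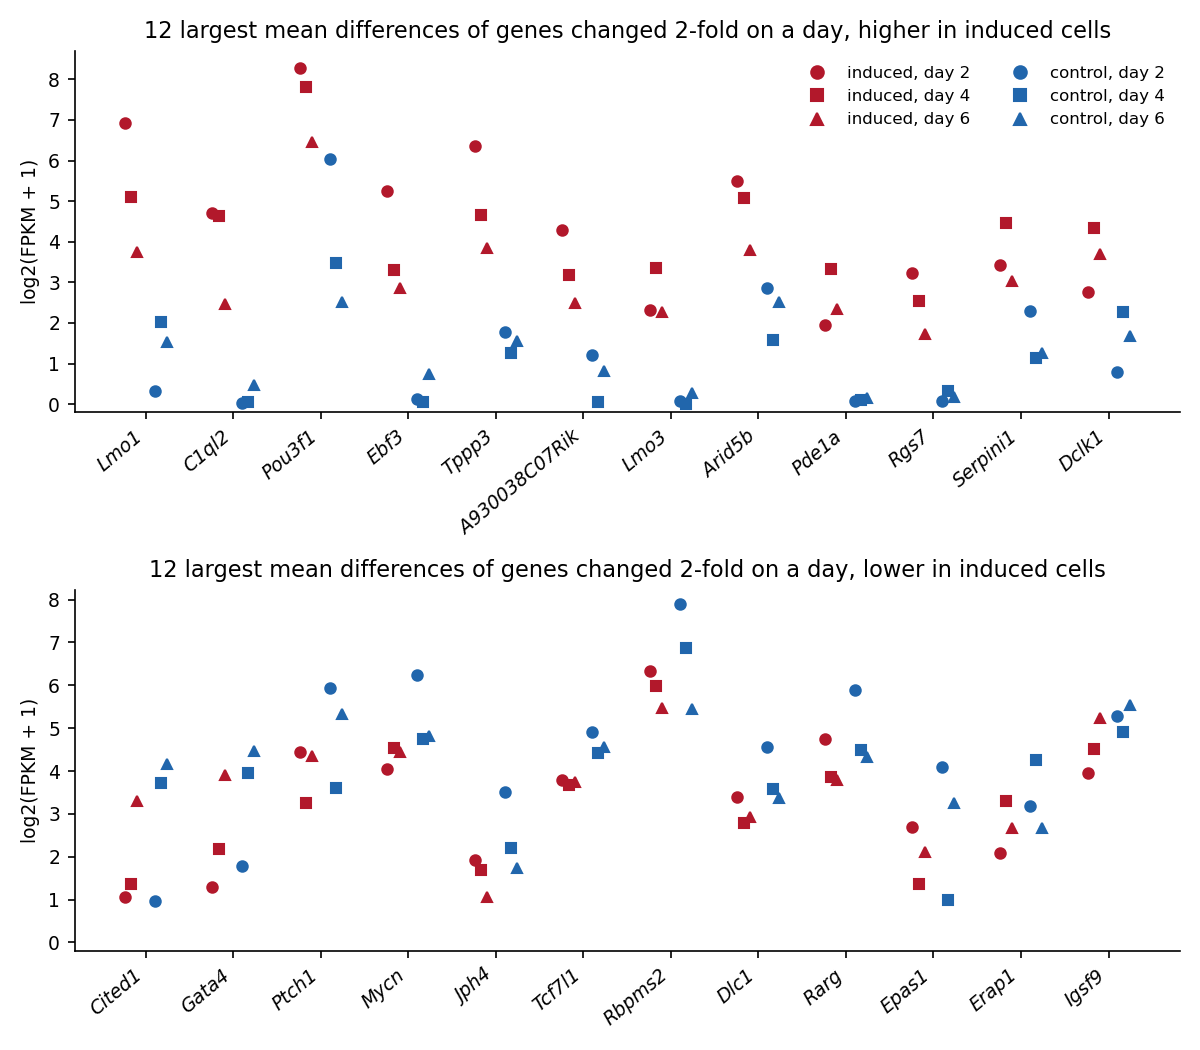
Levels as log2(FPKM + 1) (vertical axis) of the 12 start-site peak genes with the largest mean difference in each direction among genes that differed 2-fold on at least 1 day, with induced libraries left and control libraries right for each gene and 1 symbol per day. In each of the 12 genes of the upper panel every induced library lies above every control library. In the lower panel this separation, the other way round, is seen in Mycn and Tcf7l1, and the arms overlap in the other genes.

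The differences of genes that were lower were smaller. Gata4, a factor of primitive endoderm and heart, measured 1.44 FPKM (induced) against 2.47 (control) on day 2, 3.55 against 14.5 on day 4 and 13.9 against 21.1 on day 6. Cited1, a CBP-binding cofactor, measured 1.07 against 0.943 FPKM on day 2, 1.58 against 12.3 on day 4 and 8.90 against 16.9 on day 6. Both were lower past the 2-fold limit at day 4 alone. Ptch1, the Hedgehog receptor, measured 20.9 against 59.9 FPKM on day 2, 8.51 against 11.2 on day 4 and 19.5 against 39.0 on day 6. Mycn, the N-Myc factor, measured 15.4 against 74.6 FPKM on day 2, 22.3 against 25.8 on day 4 and 20.6 against 27.2 on day 6. Rbpms2, an RNA-binding protein, measured 79.5 against 236 FPKM on day 2, 62.5 against 116 on day 4 and 43.5 against 42.3 on day 6. In Ptch1, Mycn and Rbpms2 the gap was widest at day 2, and in Rbpms2 it had closed to 0.04 on the log2 scale at day 6. Among genes lower or higher by 2-fold on at least 1 day, the 12 largest mean differences in this direction ran between -1.04 for Cited1 and -0.67 for Igsf9, and their adjusted p in limma's fit were 0.0963 or more, the smallest being that of Tcf7l1.

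The differences of signalling genes with a start-site peak lay in both directions. Id2 measured 96.8 FPKM (induced) against 27.8 (control) on day 2, 62.8 against 8.19 on day 4 and 121.5 against 79.8 on day 6. Wls, which carries Wnt proteins to the cell surface, measured 26.3 against 2.80 FPKM on day 2, 49.9 against 34.8 on day 4 and 85.95 against 81.1 on day 6. Tcf7l1 measured 12.7 against 28.9 FPKM on day 2, 11.8 against 20.4 on day 4 and 12.4 against 22.8 on day 6. Id2 passed the 2-fold limit upward at days 2 and 4, Wls at day 2, and Tcf7l1 downward at day 2, while every control library of Tcf7l1 lay above every induced one. Myc measured 24.6 against 46.1 FPKM on day 2, 11.03 against 19.2 on day 4 and 9.79 against 16.4 on day 6, a mean difference of -0.77 with no day past the limit. Smad1 and Smad4, transducers of BMP signals, had mean differences of 0.35 and 0.05, and Etv5, Map2k1, Map2k2 and Mapk3 of the Nodal and FGF list lay between -0.33 for Mapk3 and 0.13 for Etv5, none past the limit. Fzd8 and Jag1, a Wnt receptor and a Notch ligand, had -0.09 and -0.32.

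Of the chromatin and cell cycle genes with a peak, 1 passed the 2-fold limit. Over all genes, 12.7% were higher and 4.9% lower on at least 1 day, and these lists are too small to set against those shares. Jarid2, a partner of Polycomb complex PRC2, measured 41.0 FPKM (induced) against 99.997 (control) on day 2, 28.2 against 35.7 on day 4 and 24.0 against 25.8 on day 6. It was the 1 chromatin regulator of 7 past the 2-fold limit, at day 2. Tet1, the methylcytosine oxidase, measured 18.3 against 36.4 FPKM on day 2, 7.01 against 8.81 on day 4 and 6.16 against 5.50 on day 6, and stayed inside the limit. Kdm1a, Mll1, Mll2, Nipbl and Rcor1 had mean differences between -0.19 for Kdm1a and 0.25 for Rcor1, and the cell cycle genes Cdkn1a, E2f1, Mcm6 and Trp53 between -0.26 for Trp53 and 0.15 for Cdkn1a. Tbx3, a T-box factor of the pluripotency list, and Eomes, a T-box factor of mesendoderm, had 0.42 and 0.14, with no day past the limit.

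Among genes whose peak holds the octamer, 3 of 15 expressed genes were higher on at least 1 day, or 20% (7.05% to 45.2%), and 0 were lower. A930038C07Rik measured 18.6 FPKM (induced) against 1.32 (control) on day 2, 8.13 against 0.0380 on day 4 and 4.61 against 0.760 on day 6, a mean difference of 2.63 (standard error 0.33, limma adjusted p = 0.0912). Pcdh8 measured 8.14 against 2.67 FPKM on day 2, 12.4 against 1.499 on day 4 and 10.8 against 6.35 on day 6. Wwc2, a Hippo pathway scaffold, measured 22.4 against 8.48 FPKM on day 2, 17.7 against 13.7 on day 4 and 12.7 against 12.6 on day 6. These are the 3 higher genes, on all 3 days, on days 2 and 4, and on day 2. Pou2f1 measured 19.8 against 13.4 FPKM on day 2, 11.6 against 10.2 on day 4 and 9.38 against 9.24 on day 6. Elf3 measured 3.37 against 6.36 FPKM on day 2, 7.78 against 15.9 on day 4 and 10.35 against 9.69 on day 6. Neither passed the limit, and the interval for 15 genes includes the share of 11.4% among genes without an octamer.

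The highest score of 19 was shared by 11 start-site peaks, and the genes named here belong to only some of them. Snrpd3 measured 186 FPKM (induced) against 227 (control) on day 2, 234 against 232 on day 4 and 207 against 203 on day 6. Also at peaks scored 19 were 6 further named genes (1110038D17Rik, Ddx56, Slain1, Smarcd2, Ube2f and Wdr31). With Snrpd3, they had mean differences between -0.29 for Slain1 and 0.21 for 1110038D17Rik. None of them passed the 2-fold limit on any day. Over all genes, 12.7% were higher and 4.9% lower on at least 1 day, and these genes are too few to set against those shares.

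Depth and the levels of marker genes differed between libraries. Relative to control day 2, the estimated depth was 0.798 in induced day 2, 0.760 in induced and 1.48 in control day 4, and 0.685 in induced and 0.776 in control day 6. Summed over 4 neural markers, the level was 59.9 FPKM (induced) against 19.7 (control) on day 2, 43.7 against 16.8 on day 4 and 74.2 against 22.3 on day 6. Summed over 7 visceral endoderm markers it was 6.69 FPKM (induced) against 36.9 (control), 7.17 against 130.4, and 13.8 against 176 on those days. Over 4 pluripotency markers it was 663 FPKM (induced) against 1179.8 (control), 714 against 651, and 249 against 201. Fibroblast markers, of which Vim has a start-site peak, summed to 345 FPKM (induced) against 113 (control), 221 against 166, and 329 against 404. No other marker had a start-site peak, and the part of these differences in the levels above was not tested. Each sum follows its most abundant markers and does not give the share of a cell type.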

How the data were processed

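Reads were handled by the authors with HOMER, Cuffdiff, Cufflinks 1.3.0 and TopHat 1.4.1 on mouse build mm9, per the submitters' processing notes, and parameters, strandedness and the handling of multi-mapping reads are not given in the sources used here. The authors deposited FPKM values for the 6 RNA libraries as 1 table of gene symbols, and a day 4 peak list whose deposited score is of a scale not given in the sources used here. Genes with near-identical copies (ribosomal protein, histone and zinc finger genes) and overlapping genes are therefore uncertain.

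Peak centres were set against GENCODE vM1 protein-coding transcripts on NCBIM37, and the 14 peaks on other contigs were left out. Motifs were exact matches on both strands within the 133 bp peaks, beside 133 bp windows at all starts. FPKM was compared as log2(FPKM + 1), induced minus control. A gene was tested at 1 FPKM or more in either library of a day, and over the days at 1 FPKM or more in any of the 6. No test was made within a day. Differences common to the 3 days were fitted with limma 3.58.1 in R 4.3.3 (lmFit, eBayes with trend, day as a block), tested on simulated data. Wilson intervals cover counting error only. The other steps used pysam 0.24.0, matplotlib 3.10.9, scipy 1.17.1, pandas 2.3.3 and numpy 2.4.6 in Python 3.11.15. Fragment totals are not in the table, and relative depth was estimated from the steps of low FPKM values, a step shared by 39 to 99 genes per library.

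Named genes were Pou3f1, for each direction the 12 genes of largest mean difference among those changed on any day, the 6 of highest level, 6 below 1 FPKM with the highest scores, the genes at 8 peaks of highest score, up to 15 with the octamer, and members of the gene lists, of which the lists made from symbol stems are represented by their 2 genes of highest level. The peaks of highest score were part of 11 tied at 19, and score did not choose among them. The genes higher on all 3 days and Frzb, Slc30a10 and the printed sequences were chosen after values were seen. The members and lists were chosen with earlier results of these data known. Alternatives covered the distance and score limits, the pseudocount, the filter, the fold, the scaling, the block and each day left out. A few named genes and 1 sequence are not reported here.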

Additional observations from a re-analysis of the deposited data

Results flagged for a closer look

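In 2 genes with a start-site peak the difference between induced and control cells changed direction between days, and on each of the days concerned the arms differed by at least 2-fold. With 1 library per arm and day, the difference between the days was not tested. Both genes were picked out after their values were seen.

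Frzb, a secreted Wnt antagonist, measured 2.73 FPKM (induced) against 0.174 (control) on day 2, 8.41 against 11.7 on day 4 and 11.9 against 35.1 on day 6. It was higher by 1.67 on the log2(FPKM + 1) scale at day 2 and differed by -1.48 at day 6. Its peak centre lay 193 bp downstream of the start, with a score of 10.1.

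Slc30a10, a manganese exporter, measured 2.41 FPKM (induced) against 0.442 (control) on day 2, 1.80 against 0.149 on day 4 and 0.948 against 3.08 on day 6. Its differences were 1.24 at day 2, 1.29 at day 4 and -1.07 at day 6, all at levels of a few FPKM. Its peak centre lay 44 bp upstream of the start, with a score of 11.4.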

How the results depend on the processing

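Peak and gene numbers (1640 and 1745) stayed within 1.5 times with distance limits of 500 or 2000 bp, no score limit, or gene 5' ends alone, and fell to 22 peaks and 25 genes with a score limit of 10, which keeps the lowest steps alone. The octamer share became 4.94% with the core ATGCNNAT and otherwise lay between 0.937% and 1.43%. A pseudocount of 0.1 gave 8 lower genes at day 6. A minimum of 5 FPKM gave 54 higher genes at day 4 and 24 at day 6, with fewer genes tested. Median ratio scaling gave 27 lower at day 2, and quantile normalisation gave 92 higher at day 2, 10 lower at day 4 and 7 lower at day 6. A 1.5-fold limit gave 330 higher and 62 lower at day 2, 200 higher and 37 lower at day 4, and 84 higher and 23 lower at day 6. The cause of the changes under scaling and pseudocount was not tested.

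limma passed 0 genes with a peak at an adjusted p below 0.05 in either direction, also without the day block, with each day left out in turn (0 to 0), under the other scalings, the other pseudocount and no filter. At an unadjusted p below 0.05, 115 to 266 were higher and 27 to 75 lower with a day left out, and 139 higher and 11 lower without the block. The day block pairs the induced and the control library of each day. Of 726 alternative values for the named genes' mean differences, 671 moved by less than the spread between days and 55 moved further. A mean with 1 day left out cannot move by more than that spread, so those values could only count as unmoved. The 55 came from median ratio scaling (16 of 121), a pseudocount of 0.1 (24 of 121) and quantile normalisation (15 of 121). Of the 33 genes with a mean difference of at least 1 in size, 0 changed sign under any alternative. These 33 were set by their size in the same values, so this is no separate check of them. Among them are the 28 genes higher on all 3 days, whose mean cannot change sign with a day left out. Of the other 88 genes, 31 changed sign under at least 1 alternative, all of them at 0.21 or less in size. Frzb, with -0.08, became 0.45 with a pseudocount of 0.1, 0.09 without day 4 and 0.62 without day 6. Depth limits genes of low level, and 1 ChIP library leaves each peak without a replicate check.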

Other observations

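Hist1h1c, a linker histone gene, measured 4.32 FPKM (induced) against 1.43 (control) on day 2, 9.02 against 4.08 on day 4 and 9.82 against 3.61 on day 6, while H3f3b, the H3.3 gene, measured 458 against 378, 565 against 484, and 537 against 456 FPKM on the same days.

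Genes with 2 or more start-site peaks were higher on at least 1 day in 15 of 84 cases, or 17.9% (95% Wilson interval 11.1% to 27.4%), against 170 of 1523 genes with 1 peak, or 11.2% (9.68% to 12.8%). The intervals overlap.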
